A study of Mus musculus with 12 samples.

Results

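Chemokines are small secreted proteins that attract leukocytes. Genes of chemokines and other inflammatory products, 9 of the 36406 gene names on the array, were followed across 3 groups of mouse embryonic stem cells. The genes are the CXC chemokines Cxcl1, Cxcl2 and Cxcl5, the CC chemokines Ccl2 and Ccl7, the cytokine Il6, the pentraxin Ptx3, the receptor Il1rl1 and the receptor Lilrb4. They were taken by gene name, and all of their 12 probes among the 55681 probes of the array were examined. The names were picked with results of these same arrays known, most likely from the comparison of Id1KO_Zrf1KD with Id1KO. Differences in that comparison and against WT after knockdown are therefore given as a description, with no test. Of the 9 genes, 8 passed the filter on dim probes and Cxcl2 did not. Not all of the products are secreted: Lilrb4 encodes a surface receptor, and Il1rl1 encodes both a membrane receptor and a secreted form.

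Total RNA was measured on 12 one-colour arrays, 4 for each group, each from an independent biological sample per the series' design. The Id1KO_Zrf1KD cells are Id1 knockout embryonic stem cells that received lentiviral hairpins against Zrf1 and puromycin selection, the Id1KO cells are the knockout cells without that hairpin, and the WT cells are unmodified embryonic stem cells. All groups grew in GMEM medium with serum and leukaemia inhibitory factor. Samples of Id1KO cells with a control hairpin were not analysed here, so knockdown, lentivirus and selection cannot be told apart in the comparison of Id1KO_Zrf1KD with Id1KO. The sources used here do not say whether the knockout is 1 clone.

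A level is given throughout as relative signal, the probe's processed signal divided by the 75th percentile of its array, and means of it are geometric. The 75th percentile lay between 554.0 and 596.5 intensity units in Id1KO_Zrf1KD, between 393.3 and 491.8 in Id1KO and between 440.7 and 550.2 in WT, and no spot was saturated. Zrf1, listed as Dnajc2, had a mean relative signal of 0.831 in Id1KO_Zrf1KD against 3.71 in Id1KO and 3.99 in WT, a log2 difference of -2.16 between Id1KO_Zrf1KD and Id1KO (SE 0.07, limma adjusted p = 9.65e-10). The single Id1 probe was not lower in the arrays labelled Id1KO. It read 1.82 to 3.0 there against 1.56 to 2.07 in WT, with overlap (limma adjusted p = 0.0519), and 1.49 to 1.90 in Id1KO_Zrf1KD. Which part of Id1 was deleted is not stated, and if the probe lies outside it the reading says nothing about the label. Id1KO below means the arrays with that label. All 10 embryonic stem cell markers examined, Pou5f1 and Nanog among them, were well above background on every array.

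The 9 products belong to the early program by which tissue cells signal injury or infection to the immune system. Cxcl1, Cxcl2 and Cxcl5 act on the receptor Cxcr2 of neutrophils, and Ccl2 and Ccl7 on the receptor Ccr2 of monocytes. Il6 acts through Il6ra and the shared subunit Il6st, and Ptx3 is a soluble pattern recognition protein that binds microbes and complement. Il1rl1, also called ST2, pairs with Il1rap to receive interleukin 33, while Lilrb4 is an inhibitory receptor of myeloid cells and mast cells. Transcription of many of these genes in stimulated cells is driven by NF-kB, whose subunit Rela binds upstream of Cxcl1, Cxcl2 and Il6. In embryonic stem cells, inflammatory signalling of this kind is known to be weak.

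The upstream sequences of 5 of the 9 genes were found in the RefSeq promoter table (build GRCm38.p6), which gave 6 windows because Il1rl1 has 2 starts there. The other 4 genes are Cxcl5, Ccl2, Ccl7 and Lilrb4. The 250 bases before the start were searched on both strands for the NF-kB consensus, the AP-1 letters TGANTCA and the Egr letters GCGNGGGCG. None of the 6 windows held the Egr letters. Cxcl1, Cxcl2 and Il6 are printed because their windows hold the NF-kB consensus, in capitals. Ptx3 is printed because its levels follow another order over the groups and its window holds none of the motifs. The windows lie on the plus strand at chr5:90890995-90891244 (Cxcl1), chr5:90903649-90903898 (Cxcl2), chr5:30012864-30013113 (Il6) and chr3:66219637-66219886 (Ptx3).
Cxcl1: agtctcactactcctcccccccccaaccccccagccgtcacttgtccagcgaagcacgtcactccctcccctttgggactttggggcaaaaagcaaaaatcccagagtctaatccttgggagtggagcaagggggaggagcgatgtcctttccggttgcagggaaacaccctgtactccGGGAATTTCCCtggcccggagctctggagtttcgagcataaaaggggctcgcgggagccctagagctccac
Cxcl2: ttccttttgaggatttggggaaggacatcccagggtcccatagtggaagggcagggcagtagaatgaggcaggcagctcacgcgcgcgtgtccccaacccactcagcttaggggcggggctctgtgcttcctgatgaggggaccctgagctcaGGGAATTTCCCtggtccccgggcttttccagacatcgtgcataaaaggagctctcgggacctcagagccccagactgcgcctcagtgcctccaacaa
Il6: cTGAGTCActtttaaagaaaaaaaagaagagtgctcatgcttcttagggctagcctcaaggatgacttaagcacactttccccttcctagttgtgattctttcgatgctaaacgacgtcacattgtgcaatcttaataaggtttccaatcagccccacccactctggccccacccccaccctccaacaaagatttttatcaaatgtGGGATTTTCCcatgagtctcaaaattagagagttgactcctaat
Ptx3: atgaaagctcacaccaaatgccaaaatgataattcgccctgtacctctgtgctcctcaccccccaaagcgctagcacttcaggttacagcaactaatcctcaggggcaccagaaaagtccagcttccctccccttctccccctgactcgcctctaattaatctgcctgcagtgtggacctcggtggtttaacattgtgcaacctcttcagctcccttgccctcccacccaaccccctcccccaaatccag
In Cxcl1 the capitals are 2 overlapping matches, GGGAATTTCC from 71 to 62 and GGAATTTCCC from 70 to 61 bases before the start. Cxcl2 holds the same letters from 97 to 88 and from 96 to 87 bases before its start. The Il6 window holds GGGATTTTCC from 44 to 35 bases before the start and, also in capitals, the AP-1 match TGAGTCA from 249 to 243, which does not overlap it. The windows of Il1rl1 held none of the motifs. Among all 32851 promoter windows of the same length, 3.9% held the NF-kB consensus, 6.75% the AP-1 letters and 4.7% the Egr letters. These matches describe the sequence. No binding was measured, and no link between the motifs and the order of levels was tested.

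All 9 genes averaged higher in Id1KO_Zrf1KD than in Id1KO. For 8 of them every Id1KO_Zrf1KD array read above every Id1KO array, as did 30.6% of the genes tested, and for Cxcl2 the groups overlapped. Since the genes were most likely chosen on this contrast, the count is not read as evidence about them. The fold was between 1.37 for Ccl7 and 23.1 for Il1rl1 among those 8. Against WT, all 9 genes were higher in Id1KO_Zrf1KD without overlap, where 30.7% of genes were. In whole cultures, more cells of a producing type and more RNA per cell cannot be told apart.

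**Figure D1:**
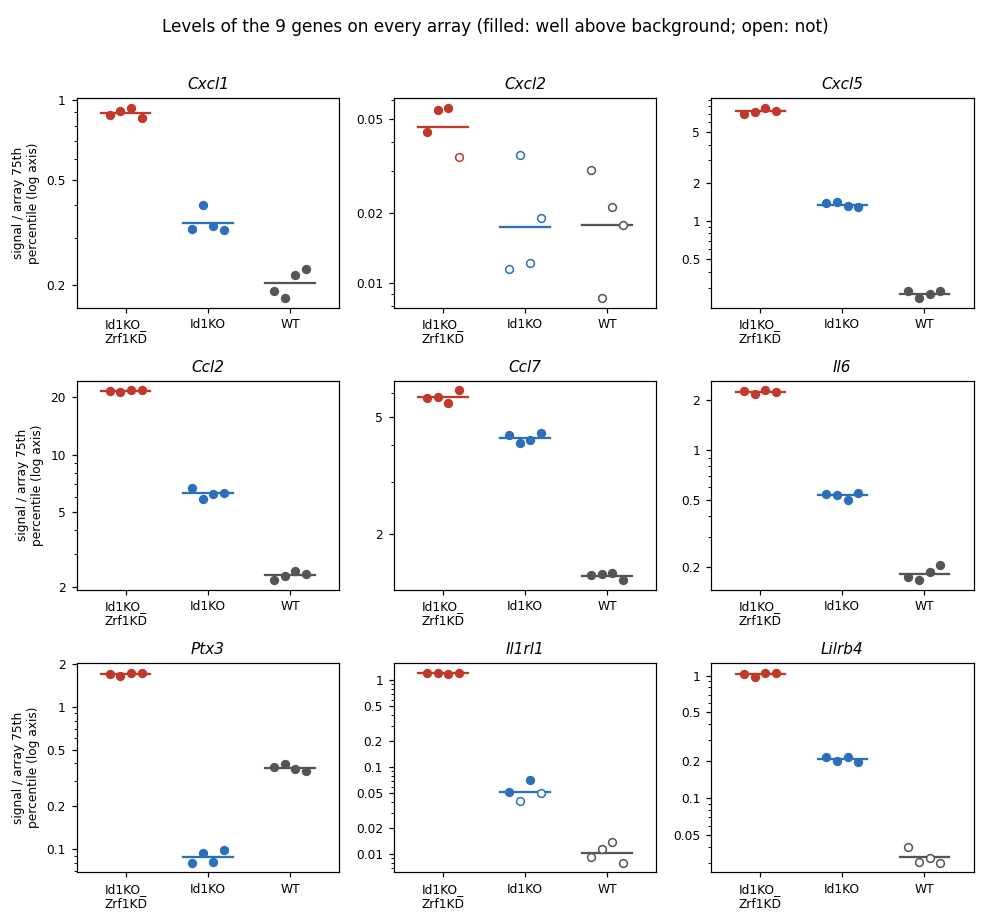
Relative signal (signal divided by the array's 75th percentile, log axis) of the 9 genes, a panel each, on each of the 4 arrays of Id1KO_Zrf1KD, Id1KO and WT; filled points were well above background, open points were not, and bars are geometric means. The 4 Cxcl5 points lie at 6.90 to 7.75 in Id1KO_Zrf1KD, above all Id1KO and WT points, whereas Ptx3 is lowest in Id1KO.

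Among the CXC chemokines, Cxcl5 showed the widest separation over the 3 groups. The Cxcl5 probe (chromosome 5, 91190490 to 91190549, mm9) read 6.90, 7.27, 7.75 and 7.31 on the Id1KO_Zrf1KD arrays, 1.38, 1.41, 1.31 and 1.30 on the Id1KO arrays, and 0.281, 0.248, 0.267 and 0.283 on the WT arrays. The 3 groups did not overlap, and each step was close to 5-fold. The log2 difference was 2.44 (SE 0.06, 5.41-fold) for Id1KO_Zrf1KD against Id1KO and 2.32 (SE 0.06, 5.01-fold) for Id1KO against WT, the last with a limma adjusted p of 5.43e-11. Together Id1KO_Zrf1KD stood 27.1-fold above WT.

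Cxcl1, a neutrophil attractant best known from stressed epithelium and fibroblasts, had the same order at smaller size. Its probe (chromosome 5, 91321845 to 91321904) read 0.881, 0.912, 0.934 and 0.859 on the Id1KO_Zrf1KD arrays, 0.324, 0.402, 0.333 and 0.322 on the Id1KO arrays, and 0.191, 0.179, 0.219 and 0.230 on the WT arrays. No values overlapped between groups, and Id1KO replicate 2 stood above the other 3 Id1KO arrays. The log2 difference was 1.38 (SE 0.09) for Id1KO_Zrf1KD against Id1KO and 0.76 (SE 0.09, 1.69-fold, limma adjusted p = 1.94e-05) for Id1KO against WT.

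Cxcl2, its close paralogue beside it on the chromosome (91334534 to 91334593), was near the limit of the array. It read 0.0440, 0.0547, 0.0557 and 0.0346 on the Id1KO_Zrf1KD arrays, of which 3 were well above background, and 0.0115, 0.0351, 0.0122 and 0.0189 on the Id1KO arrays. The WT arrays read 0.0303, 0.00866, 0.0212 and 0.0177, and no Id1KO or WT array was well above background. Id1KO_Zrf1KD replicate 4 lay below Id1KO replicate 2, so these groups overlapped. Against the lowest level measured above background on the same arrays, Cxcl2 in Id1KO_Zrf1KD was 1.34-fold over Id1KO and 1.65-fold over WT. The probe was not in the fit, and its fold over Id1KO fell to 1.26 under other scalings.

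Ccl2, the main monocyte attractant, was measured on 10 spots per array at chromosome 11, 81850650 to 81850709. It read 21.5, 21.3, 21.8 and 21.8 on the Id1KO_Zrf1KD arrays, 6.70, 5.86, 6.22 and 6.25 on the Id1KO arrays, and 2.18, 2.31, 2.43 and 2.35 on the WT arrays. The values of a group lay close together and far from the next group. The log2 difference was 1.79 (SE 0.05, 3.46-fold) for Id1KO_Zrf1KD against Id1KO and 1.43 (SE 0.05, 2.70-fold, limma adjusted p = 7.19e-10) for Id1KO against WT.

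Ccl7, which lies next to Ccl2 (81860656 to 81860715) and shares the receptor Ccr2, differed mostly at the knockout step. Its probe read 5.77, 5.83, 5.56 and 6.14 on the Id1KO_Zrf1KD arrays, 4.32, 4.06, 4.18 and 4.40 on the Id1KO arrays, and 1.45, 1.46, 1.47 and 1.39 on the WT arrays. The groups did not overlap, though Id1KO and Id1KO_Zrf1KD lay near each other. The log2 difference was 0.46 (SE 0.04, 1.37-fold) for Id1KO_Zrf1KD against Id1KO and 1.56 (SE 0.04, 2.94-fold, limma adjusted p = 1.75e-10) for Id1KO against WT.

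Il6, the interleukin 6 gene, was read by a probe with 2 spots at chromosome 5, 30346367 to 30346426. It read 2.27, 2.18, 2.28 and 2.23 on the Id1KO_Zrf1KD arrays, 0.544, 0.536, 0.503 and 0.554 on the Id1KO arrays, and 0.173, 0.165, 0.186 and 0.204 on the WT arrays. Each group was apart from the next. The log2 difference was 2.07 (SE 0.06, 4.20-fold) for Id1KO_Zrf1KD against Id1KO and 1.56 (SE 0.06, 2.94-fold, limma adjusted p = 2.61e-09) for Id1KO against WT, and Id1KO_Zrf1KD stood 12.4-fold above WT.

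Ptx3, which in stimulated fibroblasts and macrophages is made in response to the same signals as Il6, followed another order. The Ptx3 probe (chromosome 3, 66029245 to 66029304) read 1.69, 1.64, 1.74 and 1.74 on the Id1KO_Zrf1KD arrays, 0.0805, 0.0943, 0.0814 and 0.0982 on the Id1KO arrays, and 0.379, 0.394, 0.368 and 0.355 on the WT arrays. It was lowest in Id1KO, intermediate in WT and highest in Id1KO_Zrf1KD, without overlap. Ptx3 was 4.23-fold lower in Id1KO than in WT (log2 difference -2.08, SE 0.07, limma adjusted p = 5.66e-10). After knockdown the log2 difference from Id1KO was 4.27 (SE 0.07, 19.3-fold) and that from WT was 2.19 (4.56-fold). The 19.3-fold value fell to 8.24-fold, and the 4.23-fold value to 2.35-fold, at the smallest of the other scalings.

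**Figure D2:**
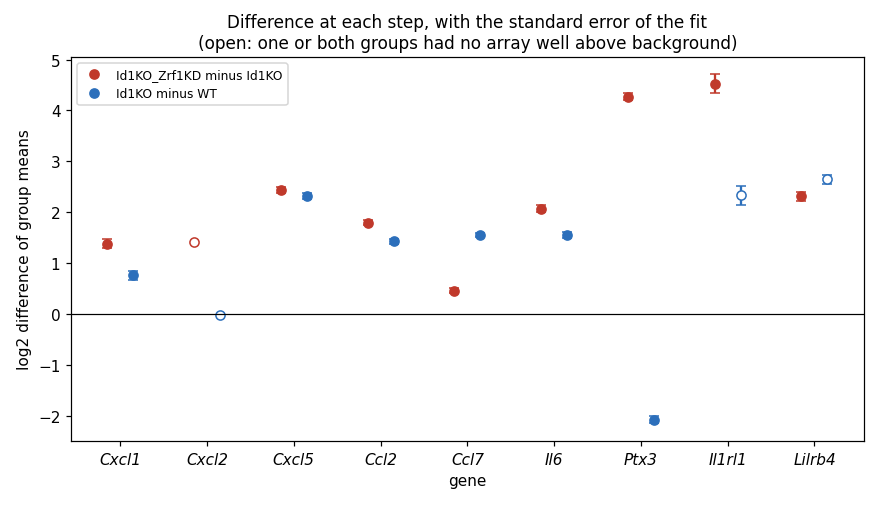
Log2 difference of group means for the 9 genes at the 2 steps, Id1KO_Zrf1KD minus Id1KO and Id1KO minus WT, with the standard error of the fit; Cxcl2 has none because it was not in the fit, and open points rest on a group with no array well above background. Ptx3 stands at 4.27 and -2.08, the only gene of the 9 whose Id1KO minus WT point lies clearly under 0.

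Il1rl1 was read by 3 probes, which are given apart because they belong to different transcripts. Transcript variant 2 encodes the secreted form of ST2, a decoy for interleukin 33, and its probe (chromosome 1, 40504769 to 40504828) stood for the gene in the fit. That probe read 1.21, 1.23, 1.19 and 1.21 on the Id1KO_Zrf1KD arrays, 0.0516, 0.0412, 0.0710 and 0.0499 on the Id1KO arrays, and 0.00923, 0.0115, 0.0139 and 0.00802 on the WT arrays. It was well above background on all 4 Id1KO_Zrf1KD arrays, 2 Id1KO arrays and no WT array. The level was 23.1-fold higher in Id1KO_Zrf1KD than in Id1KO (log2 difference 4.53, SE 0.18), which fell to 6.97-fold at the smallest of the other scalings. It was at least 43.0-fold higher in Id1KO_Zrf1KD than in WT. Between Id1KO and WT the plain log2 difference was 2.33 (SE 0.18, 5.03-fold, limma adjusted p = 4.73e-07), or 1.24-fold at the smallest of the other scalings. By the bound, which was not tested, the level was 1.87-fold higher in Id1KO than in WT. The 1.87-fold value is not a strict lower limit, because the Id1KO mean includes arrays not above background.

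Variant 1 encodes the membrane receptor, and its 2 probes differed. The probe farther along the transcript (40522187 to 40522246, from base 4998) read 0.933, 0.987, 1.08 and 0.994 on the Id1KO_Zrf1KD arrays, between 0.0125 and 0.0269 on the Id1KO arrays and between 0.00636 and 0.0161 on the WT arrays. Only the Id1KO_Zrf1KD arrays were above background there, which gave at least 28.8-fold over Id1KO and at least 35.6-fold over WT. The nearer probe (40520014 to 40520073, from base 2825) read 0.0103, 0.0402, 0.0179 and 0.0467 on the Id1KO_Zrf1KD arrays, of which replicate 4 alone was above background. Its range was 0.0102 to 0.0115 in Id1KO and 0.00666 to 0.00826 in WT, with overlap between Id1KO_Zrf1KD and Id1KO. The probe of the secreted form was thus far higher after knockdown, while the probes of the membrane form disagreed.

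Lilrb4 had 2 probes on chromosome 10. The brighter (51216160 to 51216219) read 1.03, 0.971, 1.06 and 1.05 on the Id1KO_Zrf1KD arrays, 0.217, 0.200, 0.216 and 0.198 on the Id1KO arrays, and 0.0401, 0.0306, 0.0325 and 0.0300 on the WT arrays, none of them well above background in WT. The groups did not overlap. The level was 4.96-fold higher in Id1KO_Zrf1KD than in Id1KO (log2 difference 2.31, SE 0.08) and at least 31.1-fold higher than in WT. It was at least 6.27-fold higher in Id1KO than in WT (limma adjusted p = 4.3e-10), which fell to 1.72-fold at the smallest of the other scalings. The dimmer probe, which spans an exon junction between 51212976 and 51213891, read 0.156 to 0.175 in Id1KO_Zrf1KD and was below background on all Id1KO arrays (0.0242 to 0.0494), at least 3.91-fold apart. In WT it read 0.00743 to 0.0483, and replicate 4 alone was above background. Gp49a is a near-identical neighbour of Lilrb4, and how much of each gene's signal came from the other was not tested.

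**Figure D3:**
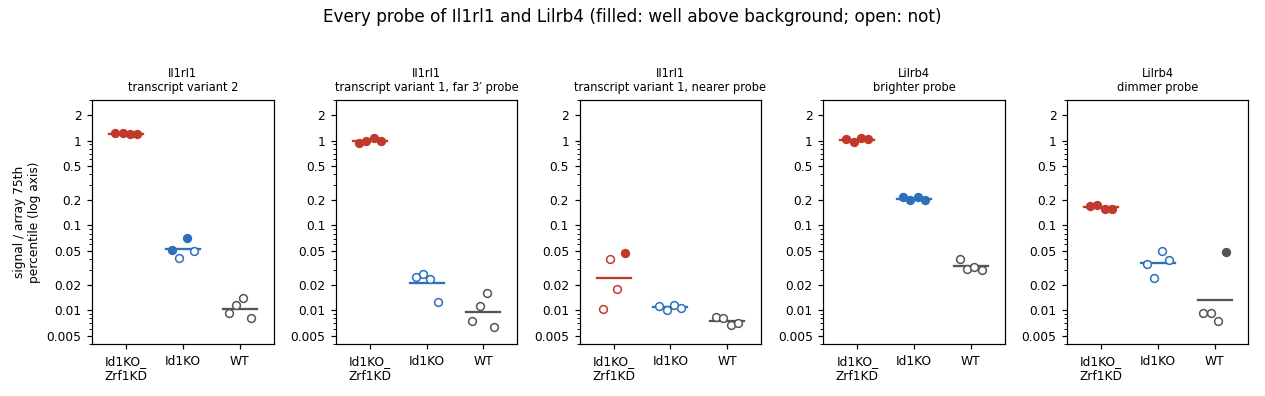
Relative signal (log axis) of the 3 Il1rl1 probes and the 2 Lilrb4 probes on every array, in the order Id1KO_Zrf1KD, Id1KO and WT; filled points were well above background and bars are geometric means. The variant 2 probe and the far variant 1 probe of Il1rl1 are near 1 in Id1KO_Zrf1KD, while the nearer variant 1 probe is above background on 1 of those 4 arrays.

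At the knockout step, 7 of the 8 genes in the fit were higher in Id1KO than in WT and Ptx3 was lower, at an adjusted p under 0.05 (limma, Benjamini-Hochberg over 22590 genes). Of all genes, 42.5% were higher and 29.6% lower by the same test. The same 7 genes were above WT without overlap, where 38.3% of genes were, and Ptx3 was below, where 27.5% were. These calls are not independent of the choice of genes, because the Id1KO arrays enter both comparisons. Each of the 3 slides held all 3 groups, and within a slide each of the 8 genes kept its direction. On some slides a group had a single array, so some of these differences compare single arrays. The within-slide log2 difference between Id1KO and WT was 2.22 to 2.39 for Cxcl5, 1.39 to 1.51 for Ccl2, 0.69 to 0.85 for Cxcl1 and -2.22 to -2.00 for Ptx3. For Id1KO_Zrf1KD against Id1KO it was 2.44 to 2.49 for Cxcl5, 1.77 to 1.80 for Ccl2, 1.37 to 1.5 for Cxcl1, 0.41 to 0.51 for Ccl7, 1.98 to 2.16 for Il6, 4.06 to 4.40 for Ptx3, 4.09 to 4.69 for Il1rl1 and 2.27 to 2.35 for Lilrb4. Cxcl2 had no common direction between Id1KO and WT, with -1.31, 1.12 and 0.05 in the 3 slides.

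Probes that were never well above background give a measure of how the scaling moves dim signals. The median log2 difference of these 16788 probes was -0.49 between Id1KO_Zrf1KD and Id1KO and 0.43 between Id1KO and WT. Over the genes tested, the medians were -0.09 and 0.15. Cxcl2, Il1rl1 and Lilrb4 each had at least 1 group near background, where such a shift is not covered by the standard error.

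As a description over the 12 arrays, which fall into 3 groups, the Pearson correlation of each gene with the mean standardised level of the other 7 in the fit was 0.873 for Ccl7, 0.532 for Ptx3 and 0.977 to 0.997 for the remaining 6. By the same measure, the genes outside the set with the most similar profile among 13605 candidates were Amot, Ercc4, Ccnd2, Rhox5 and Ccnl1, with r of 0.9991, 0.9988, 0.9986, 0.9983 and 0.9977. Amot, which encodes the scaffold protein angiomotin, was 3.43-fold higher in Id1KO_Zrf1KD than in Id1KO and 2.16-fold higher in Id1KO than in WT. Ccnd2, which encodes cyclin D2, was 2.62-fold and 1.86-fold higher in these comparisons.

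Several of the 9 genes lie in gene clusters, and their neighbours were read in chromosomal order. In the CXC cluster of chromosome 5, Ppbp, Pf4 and Cxcl3 lie between Cxcl5 and Cxcl1. Ppbp, a platelet chemokine, read 0.415 in Id1KO_Zrf1KD and was below background on every Id1KO and WT array. It was at least 11.96-fold higher in Id1KO_Zrf1KD than in Id1KO, or 3.46-fold at the smallest of the other scalings. Ppbp passed the filter on dim probes only through Id1KO_Zrf1KD, which set its direction, so no test is given. Pf4, also a platelet chemokine, read 2.22 in Id1KO_Zrf1KD, 0.837 in Id1KO and 0.206 in WT, the same order as Cxcl5. It was 2.65-fold higher in Id1KO_Zrf1KD than in Id1KO (adjusted p = 1.37e-08) and 4.07-fold higher in Id1KO than in WT (adjusted p = 6.96e-10). Cxcl3, the nearest relative of Cxcl1 and Cxcl2, read 0.124 in Id1KO_Zrf1KD and was below background elsewhere, at least 3.45-fold over Id1KO. Like Ppbp, it passed the filter only through Id1KO_Zrf1KD.

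The signal was not shared by every gene of that stretch. Cxcl15 and Epgn were below background on every array, and Mthfd2l read 0.302 in Id1KO_Zrf1KD, 0.279 in Id1KO and 0.219 in WT (adjusted p = 0.525 between the first and second). Rassf6, on the far side of Cxcl5, was 1.88-fold lower in Id1KO_Zrf1KD than in Id1KO (adjusted p = 3.83e-05). Beyond Mthfd2l, the EGF family ligand Ereg read 3.77 in Id1KO_Zrf1KD, 0.0641 in Id1KO and 0.0901 in WT, 58.9-fold higher than in Id1KO (adjusted p = 1.25e-10), where 3 of 4 arrays were above background. Areg, of the same family, read 0.351 in Id1KO_Zrf1KD, 0.0919 in Id1KO and 0.0249 in WT, where 1 array was above background, and was 3.82-fold over Id1KO (adjusted p = 1.29e-06). Ereg and Areg are named for their place beside the chemokines.

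On chromosome 11, Ccl11, Ccl12 and Ccl1 next to Ccl2 and Ccl7 were below background on every array. Ccl8 read 0.111 in Id1KO_Zrf1KD and was below background in the other groups, at least 2.54-fold higher than in Id1KO. It passed the filter on dim probes only through Id1KO_Zrf1KD, so no test is given. On chromosome 1, Il1rl2, Il18r1 and Il18rap around Il1rl1 were below background on every array. Il1r1, the receptor of interleukin 1, read 0.180 in Id1KO_Zrf1KD, 0.0733 in Id1KO and 0.0904 in WT, 2.45-fold higher than in Id1KO (adjusted p = 1.63e-05) and 1.60-fold at the smallest of the other scalings.

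**Figure D4:**
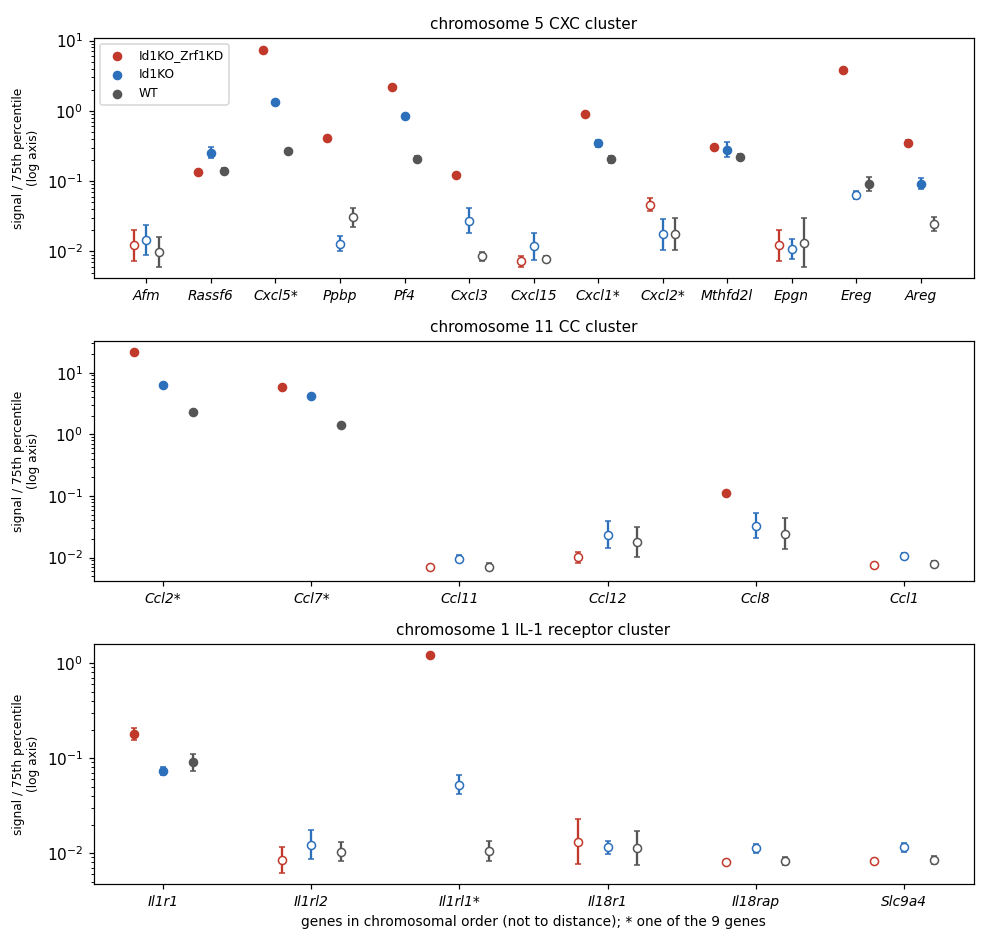
Geometric mean relative signal (log axis) with the standard deviation of 4 arrays for the genes within 250000 bases of the chemokine and Il1rl1 genes, in chromosomal order and in the order Id1KO_Zrf1KD, Id1KO and WT; filled points were well above background on all 4 arrays, and asterisks mark the 9 genes. Cxcl5 and Pf4 decline over the 3 groups, Ppbp is above background in Id1KO_Zrf1KD only, and Cxcl15, Epgn, Ccl11 and Ccl1 are open in all groups.

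Of the chemokine receptors, Ccr2 was below background on every array, and Cxcr2 was above it on 2 Id1KO_Zrf1KD arrays, no Id1KO array and 2 WT arrays. Il6ra, which binds interleukin 6, was 2.25-fold higher in Id1KO_Zrf1KD than in Id1KO (limma adjusted p = 7.43e-09) and lower in Id1KO than in WT (log2 difference -0.78, adjusted p = 1.42e-07). Il6st, the signalling subunit that leukaemia inhibitory factor also uses, had log2 differences of 0.39 (adjusted p = 5.17e-04) and -0.15 (adjusted p = 0.0825) at the same steps. Il33, the ligand of Il1rl1, was above background on 4 Id1KO_Zrf1KD arrays, 2 Id1KO arrays and no WT array. Il33 passed the filter on dim probes only through Id1KO_Zrf1KD, and its log2 difference between Id1KO_Zrf1KD and Id1KO was 1.92. Between Id1KO and WT its plain log2 difference was 2.36 (5.14-fold, limma adjusted p = 6.37e-06), or 1.25-fold at the smallest of the other scalings. By the bound, which was not tested, Il33 was 1.71-fold higher in Id1KO than in WT. Il1rap, the partner of Il1rl1, was 2.96-fold lower in Id1KO than in WT (adjusted p = 4.55e-08), or 1.90-fold at the smallest of the other scalings, and 2.29-fold higher in Id1KO_Zrf1KD than in Id1KO (adjusted p = 4.63e-07), so that it was lowest in Id1KO, as Ptx3 was.

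Related genes were counted in 8 lists with 143 genes in all, of which 85 were tested. Between Id1KO_Zrf1KD and Id1KO, 55 rose and 13 fell at an adjusted p under 0.05 by limma, with a median log2 difference of 0.88. Of all genes, 32.3% rose and 39.8% fell, and the median was -0.09. The lists were chosen with earlier results of these data known. Some of their genes, such as Ppbp, Cxcl3 and Ccl8, passed the filter only through Id1KO_Zrf1KD and could hardly count as lower. Without the filter more of the related genes fell, as given at the end. The counts are therefore a description and are not read as evidence about the lists. Between Id1KO and WT, 28 of the 85 rose and 34 fell, with a median of -0.12 against 0.15 over all genes.

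Of the 12 other CXC chemokines 8 were tested, and 5 rose and 1 fell after knockdown (median log2 difference 1.49), with 5 higher and 3 lower at the knockout step (median 0.67). Besides Ppbp, Pf4 and Cxcl3, the homeostatic chemokine Cxcl14 was 3.89-fold and the interferon-induced Cxcl10 2.98-fold higher in Id1KO_Zrf1KD than in Id1KO. Cxcl14 was 2.83-fold lower in Id1KO than in WT. For Cxcl12 the 2 probes disagreed: the brighter over all arrays was 7.48-fold higher in Id1KO than in WT, or 2.83-fold at the smallest of the other scalings, and the other had a log2 difference of -0.15. Between Id1KO_Zrf1KD and Id1KO the log2 difference was -0.42 for the brighter probe and 2.19 for the other. Without any 1 of the Id1KO arrays the second probe became the brighter, and Cxcl12 then did not pass the test.

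Of the 22 other CC, CX3C and XC chemokines 10 were tested, and 5 rose and 2 fell after knockdown (median 0.93). Cx3cl1, a membrane-bound chemokine, was 3.82-fold higher in Id1KO_Zrf1KD than in Id1KO, Ccl5 3.44-fold, Ccl6 2.42-fold and Ccl17 3.27-fold, and the last fell to 1.85-fold at the smallest of the other scalings. Ccl27a was 2.37-fold lower in Id1KO_Zrf1KD than in Id1KO and 3.22-fold higher in Id1KO than in WT. At the knockout step 6 of the 10 were higher and 1 lower (median 0.71). Ccl9 was at least 6.57-fold higher in Id1KO than in WT, where it was below background, or 1.96-fold at the smallest of the other scalings. Of 23 chemokine receptors only 6 were tested, with 2 higher and 2 lower after knockdown (median -0.20) and 2 higher and 1 lower at the knockout step (median 0.22). Ccr4 was at least 2.02-fold higher in Id1KO_Zrf1KD than in Id1KO, or 1.32-fold at the smallest of the other scalings. Ccr7 was 2.25-fold lower and Cxcr6 2.28-fold lower, or 1.34-fold and 1.14-fold by the same reckoning, and Cxcr6 was above background on 1 of the 4 Id1KO_Zrf1KD arrays.

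Of the 25 cytokines and receptors of the interleukin 6, 1 and 33 families 18 were tested, and 10 rose and 4 fell after knockdown (median 0.43). Il11, an interleukin 6 family cytokine, was 2.33-fold higher in Id1KO_Zrf1KD than in Id1KO. Traf6, which relays interleukin 1 signals, was 3.0-fold lower by the probe used, while its other probe had a log2 difference of 0.63. At the knockout step 6 were higher and 7 lower (median -0.13). Il18, a cytokine of the interleukin 1 family, counted as higher in Id1KO although the groups overlapped. It passed the filter on dim probes only through Id1KO, which favours that direction. It read 0.0779 to 0.138 in Id1KO and 0.00983 to 0.0834 in WT, where replicate 3 alone was above background. Its log2 difference was 2.10 between Id1KO and WT, 2.71 without WT replicate 3 and 0.32 at the smallest of the other scalings.

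Of the 23 NF-kB pathway genes 21 were tested, and 16 rose and 2 fell after knockdown (median 0.57), whereas 5 were higher and 12 lower at the knockout step (median -0.32). Rela, the NF-kB subunit named above, read 12.7 in Id1KO_Zrf1KD, 5.42 in Id1KO and 6.66 in WT, 2.34-fold higher than in Id1KO (limma adjusted p = 1.1e-08). Nfkb1, its usual partner, had a log2 difference of 0.99 after knockdown (adjusted p = 1.27e-05) and -0.24 at the knockout step (adjusted p = 0.0776). Tnfaip3, an NF-kB target that ends the signal, was 4.85-fold higher in Id1KO_Zrf1KD than in Id1KO, Cebpb 2.35-fold and Tnfrsf1a 2.07-fold. Nfkbia, a rapid feedback inhibitor, read 15.7 in Id1KO_Zrf1KD and 14.8 in Id1KO and did not pass the test (adjusted p = 0.0925), though it was higher in Id1KO than in WT (log2 difference 0.32, adjusted p = 2.48e-05). Nfkbid was 3.58-fold lower in Id1KO_Zrf1KD than in Id1KO, and Bcl3 and Nfkb2 were 2.05-fold and 2.38-fold lower in Id1KO than in WT. Tnf was below background on every array.

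Of the 20 other secreted and surface inflammatory genes 13 were tested, and 11 rose and 1 fell after knockdown, with a median of 2.28. Ptgs2, the inducible cyclooxygenase, read 5.94 in Id1KO_Zrf1KD, 0.324 in Id1KO and 0.411 in WT, 18.3-fold higher than in Id1KO (limma adjusted p = 6.07e-12). Lcn2, the iron-binding lipocalin 2, was 17.4-fold higher (log2 difference 4.12, or 3.42 at the smallest of the other scalings). The growth factor of macrophages Csf1 was 7.95-fold higher and complement C3 3.22-fold higher. At the knockout step 2 were higher and 8 lower (median -0.71): C3 was 2.54-fold and Csf1 2.10-fold lower in Id1KO than in WT, as Ptx3 was. Has2, a hyaluronan synthase, was 10.9-fold higher in Id1KO than in WT, or 3.14-fold at the smallest of the other scalings, with 3 of 4 WT arrays above background.

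Of 7 regulators of cytokine mRNA decay 6 were tested, and 4 rose and 1 fell after knockdown (median 0.74), with 1 higher and 2 lower at the knockout step (median -0.13). Zfp36l1 was 2.15-fold and Zfp36l2 2.23-fold higher in Id1KO_Zrf1KD than in Id1KO. Zc3h12a, which degrades Il6 mRNA, was 2.42-fold higher in Id1KO_Zrf1KD than in Id1KO and 2.36-fold lower in Id1KO than in WT, or 1.36-fold and 1.30-fold at the smallest of the other scalings, and 1 of 4 Id1KO arrays was above background. Of 11 other receptors of the Lilrb4 family 3 were tested, of which 2 rose after knockdown (median 2.52) and 1 was higher at the knockout step (median -0.30). Pirb, named Lilrb3 on the array, was at least 3.28-fold and Gp49a at least 3.12-fold higher in Id1KO_Zrf1KD than in Id1KO, or 1.58-fold and 1.54-fold at the smallest of the other scalings.

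**Figure D5:**
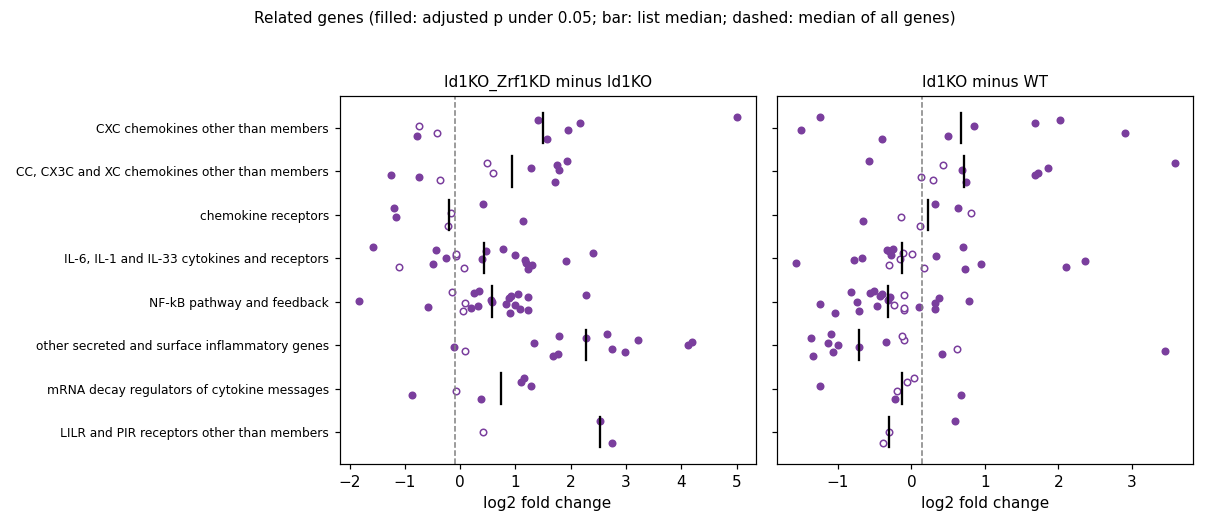
Log2 fold change of each tested gene of the 8 related lists, left for Id1KO_Zrf1KD minus Id1KO and right for Id1KO minus WT; filled points passed an adjusted p under 0.05, bars are list medians and dashed lines the medians of all genes. The other secreted and surface inflammatory genes have a median of 2.28 on the left and -0.71 on the right.

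Markers of other cell types moved with the groups, and their part in the levels above was not tested. Of all genes, 32.3% rose and 39.8% fell after knockdown, and 42.5% were higher and 29.6% lower in Id1KO than in WT. The marker counts are a description beside these shares. All 12 fibroblast markers rose after knockdown. Of these, Lum and Fap passed the filter on dim probes only through Id1KO_Zrf1KD and could hardly count as lower. The summed relative signal of the fibroblast markers was 57.4 to 60.9 in Id1KO_Zrf1KD, against 11.1 to 12.1 in Id1KO and 19.9 to 21.8 in WT. All 12 extraembryonic endoderm markers rose as well, with sums of 351.2 to 364.9 in Id1KO_Zrf1KD, 106.2 to 111.0 in Id1KO and 203.0 to 214.8 in WT. These sums are weighted by the brightest probes, such as Sparc and Lama1 of the endoderm list, and single markers followed different orders over the groups. At the knockout step 3 endoderm markers were higher and 7 lower in Id1KO than in WT, and 2 fibroblast markers were higher and 7 lower. Those higher were Dab2, Sox7 and Foxa2 of the endoderm list and Prrx1 and Fap of the fibroblast list, with Fap above background on 1 Id1KO array and 2 WT arrays. Dab2 read 1.99 in Id1KO_Zrf1KD, 0.653 in Id1KO and 0.129 in WT, and Prrx1 read 0.777, 0.133 and 0.0754, the order that Cxcl5 and Il6 also had. Col1a2 read 27.8 in Id1KO_Zrf1KD, 3.83 in Id1KO and 5.71 in WT, lowest in Id1KO as Ptx3 was. Of 15 macrophage and leukocyte markers 12 were tested, and 9 rose and 2 fell after knockdown. Emr1 and Fcgr3, which rose, passed the filter on dim probes only through Id1KO_Zrf1KD. At the knockout step 9 of this list were higher and 2 lower in Id1KO than in WT. Lyz2 read 0.546 in Id1KO_Zrf1KD, 0.224 in Id1KO and 0.0724 in WT, and Tyrobp read 0.340, 0.160 and 0.0615, also in the order of Cxcl5. The sum was 12.7 to 13.9 in Id1KO_Zrf1KD, 15.5 to 18.2 in Id1KO and 11.4 to 12.7 in WT. Itgam, the brightest probe of that sum in every group, read 4.46 in Id1KO_Zrf1KD, 11.8 in Id1KO and 6.27 in WT. Itgam fell after knockdown, so the sum does not stand for the list. Csf1r, the other marker that fell, was 1.49-fold lower in Id1KO_Zrf1KD than in Id1KO, with overlap. Among the markers that rose, Cd14 was 3.43-fold and Lyz2 2.44-fold higher in Id1KO_Zrf1KD than in Id1KO. The leukocyte factor Spi1 was below background on every array, and 12, 10 and 9 of the 15 were above it on all 4 arrays of Id1KO_Zrf1KD, Id1KO and WT. Of 8 mast cell markers 3 were tested, of which Mcpt4 and Hdc rose after knockdown and Tpsb2 fell. Mcpt4, a mast cell protease, read 0.124 in Id1KO_Zrf1KD and was below background on every Id1KO and WT array. By the bound it was at least 3.59-fold higher than in Id1KO. Like Ppbp, Mcpt4 passed the filter on dim probes only through Id1KO_Zrf1KD, so no test is given. Hdc, which makes histamine, was 1.77-fold higher in Id1KO_Zrf1KD than in Id1KO (adjusted p = 5.22e-06) and 8.04-fold higher than in WT. The defining markers Cpa3, Fcer1a, Ms4a2, Cma1 and Tpsab1 were below background on every Id1KO_Zrf1KD array. The sum over the 8 was 1.63 to 1.75 in Id1KO_Zrf1KD, 1.02 to 1.56 in Id1KO and 0.340 to 0.431 in WT. Hdc alone read 1.39, 0.785 and 0.173 in these groups, so this sum does not stand for the list either. Of 6 endothelial markers 4 were tested, of which 3 rose, with sums of 1.78 to 1.98 in Id1KO_Zrf1KD, 1.48 to 1.66 in Id1KO and 3.34 to 3.86 in WT. Vwf alone read 1.04, 1.07 and 2.96 in these groups. Of the 10 stem cell markers 5 rose and 4 fell after knockdown, and their sum was 959.5 to 974.2 in Id1KO_Zrf1KD, 1188 to 1317 in Id1KO and 1167 to 1328 in WT. Dppa5a alone read 467 in Id1KO_Zrf1KD, 741 in Id1KO and 522 in WT, so the sum does not stand for the 10 markers.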

How the data were processed

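The 12 one-colour arrays hold total RNA of mouse embryonic stem cells. Per the file headers, the authors' scanner output comes from Agilent Feature Extraction (version 10.7.3.1) and gives intensity per spot, with a processed signal that is background subtracted and detrended within each array only. Positions are in build mm9, as in the files. The authors also deposited log2 values with equal column medians, made in a way the labels do not state, and these served as an alternative. Each array's 75th percentile was subtracted from log2 processed signal, and spots marked non-uniform or as population outliers were dropped (108 to 302 per array). Probes stayed in if, in any group, all 4 arrays had at least 50% of spots well above background, and each gene name took its brightest probe, leaving 22590 genes. limma 3.58.1 in R 4.3.3 fitted a mean per group over all arrays, two-sided, with Benjamini-Hochberg adjustment at 0.05, and was tested on simulated data. A fold against a group below background throughout is a bound. On each array it was taken against the higher of the probe's own reading and the lowest level above background. For the brighter Lilrb4 probe the WT readings were the higher, so its bounds equal the plain folds. A bound holds for the scaling used here, and other scalings can give a smaller fold. It is not a strict lower limit where the higher group also had arrays below background, as for Cxcl2, and for Il1rl1 and Il33 at the knockout step. "Other scalings" are quantile normalization, normexp correction with quantile normalization, and the deposited values.

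The 9 genes, the related lists and the markers were chosen with earlier results of these data known. Named related genes are up to 4 per list and direction with the smallest adjusted p after knockdown and up to 2 at the knockout step, among those with a log2 fold change of at least 1. A fixed set of receptors and regulators, neighbours within 250000 bases, and the 5 genes of most similar profile were added. With 4 arrays in a group the spread is known only roughly, and 54.8 to 59.3% of spots were well above background. Arrays with the same replicate number did not deviate together (median correlation -0.20), so the numbers were not used as pairs. Arrays of the same slide did (median 0.24 over 16 pairs, 0.06 to 0.40), and slide was a block in an alternative fit.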

Additional observations from a re-analysis of the deposited data

Results flagged for a closer look

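Of 150 sets of 4 arrays checked with Dixon's test, 6 had an array apart from the other 3, and chance alone marks about 1 set in 20. Cxcl1 read 0.402 on Id1KO replicate 2 and 0.322 to 0.333 on the other Id1KO arrays. The dimmer Lilrb4 probe read 0.0483 on WT replicate 4 and 0.00743 to 0.00941 on the other WT arrays. Ccl9 read 0.270 on Id1KO_Zrf1KD replicate 4 against 0.253 to 0.255 on the other arrays of its group, and 0.157 on Id1KO replicate 2 against 0.191 to 0.197. Ccr7 read 0.196 on Id1KO replicate 2 and 0.225 to 0.231 on the other Id1KO arrays. Il11 read 0.843 on Id1KO_Zrf1KD replicate 2 and 0.902 to 0.907 on the other arrays of its group.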

How the results depend on the processing

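The median log2 difference of the 9 genes between Id1KO_Zrf1KD and Id1KO was 2.07, and it was 1.82 with normexp correction, 1.94 with the deposited values and 2.04 to 2.09 with 1 array left out. In Id1KO against WT, 7 of the genes were higher and 1 lower in every setting run. Related genes lower after knockdown numbered 13, or 30 without the filter on dim probes, and 12 to 15 with 1 array left out. The other leave-one-out ranges were 55 to 57 higher after knockdown, and 21 to 28 higher and 34 to 36 lower in Id1KO against WT. For all genes they were 6984 to 7321 higher and 8601 to 9047 lower after knockdown, and 9144 to 9665 higher and 6440 to 6708 lower in Id1KO against WT. Cxcl12 between Id1KO and WT turned to -0.07, -0.14, -0.20 and -0.19 (limma adjusted p 0.628, 0.413, 0.218 and 0.258) without Id1KO replicate 1, 2, 3 or 4, because its second probe then was the brighter, and reached 3.06 without WT replicate 2. Of the values of single genes under the other settings, 1169 kept direction and side of the threshold, or moved by less than 1 SD where not tested, 24 moved more and 4 reversed.

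With the replicate block, the median for the 9 genes was 2.07, 7 of them were higher and 1 lower in Id1KO against WT, and 55 related genes were higher and 12 lower after knockdown. For all genes the block gave 7086 higher and 8702 lower after knockdown. It changed no call of the 9 genes. With the slide as a block, the median was 2.09, 7 of the 9 genes were higher and 1 lower in Id1KO against WT, and 56 related genes were higher and 13 lower after knockdown. For all genes it gave 7514 higher and 9641 lower after knockdown, and 10185 higher and 7000 lower in Id1KO against WT. The median log2 difference of all genes between Id1KO and WT was 0.01 with the deposited values and 0.15 as reported. Signal near background limits Cxcl2, Il1rl1 and Lilrb4.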
